A study of Homo sapiens with 45 samples.

Results

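RNA polymerase II transcribes the protein-coding genes of the nucleus, and its subunits are encoded by separate genes named POLR2. The 10 genes POLR2A to POLR2J were taken by name from the table of normalised expression, and all 10 were found among its 15698 genes and passed the filter on low values. Expression was measured by RNAseq of poly-A mRNA in 45 libraries from HCT116-VR, a human colorectal carcinoma cell line made resistant to vorinostat, an inhibitor of histone deacetylases. By the labels, 14 conditions were transfections with pooled siRNAs at 40 nM (siBEGAIN, siCCNK, siCDK10, siDPPA5, siEIF3L, siGLI1, siJAK2, siNFYA, siPOLR2D, siPSMD13, siRGS18, siSAP130, siTGM5 and siTOX4), and the control was mock transfection with lipid only. RNA was extracted at 48 h, with 3 libraries per condition from independent experiments.

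The enzyme is built around the largest subunits, POLR2A and POLR2B, which form the active centre, on a platform that holds the pair POLR2C and POLR2J. POLR2E, POLR2F and POLR2H are shared with RNA polymerases I and III. POLR2D and POLR2G form the stalk that projects from the core beside the RNA exit, and POLR2I is a small subunit on the lobe known for its part in transcript fidelity. POLR2A also carries the C-terminal domain, the repeat tail whose phosphorylation follows the stages of transcription.

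Libraries are named here by their number. The sample list of the study pairs each number with a condition, and the siRNA targets were read first as a check of it. Of the 14 targets, 11 were in the table, and of the 33 places for their 3 lowest libraries each, 3 fell to libraries listed under the siRNA of that target. The targets therefore went against the list, so its conditions are used below as listed names only, and neither expression values nor positions in the table were used to rename a library. Reads recovered from the log2 values and summed over the 15698 genes of the table ranged from 7569592 to 21149597 per library (median 11551126). Of 7 colorectal epithelial markers 6 were in the table, with EPCAM at 2459 to 9496 reads and VIL1 not listed. None of 3 leukocyte or 3 endothelial markers was listed, and of 3 fibroblast markers COL1A1 was, at 33 to 314 reads.

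Across the 45 libraries the subunit genes formed a graded series of levels. On the log2 CPM scale, where CPM is the read count scaled to library size, the medians ran from 9.34 for POLR2A through 8.45 for POLR2B, 7.90 for POLR2E, 7.03 for POLR2C, 6.86 for POLR2H, 6.43 for POLR2D, 6.22 for POLR2G, 6.11 for POLR2F and 4.89 for POLR2I to 4.58 for POLR2J. The median s.d. of the 10 genes was 0.26, against 0.40 for the 15695 genes tested, which had a lower median level (4.29, against 6.64 for the members). Since these are bulk samples, a smaller share of cells with a given mRNA and less of it per cell cannot be told apart. The lowest count of any subunit in any library was 87 reads.

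**Figure D1:**
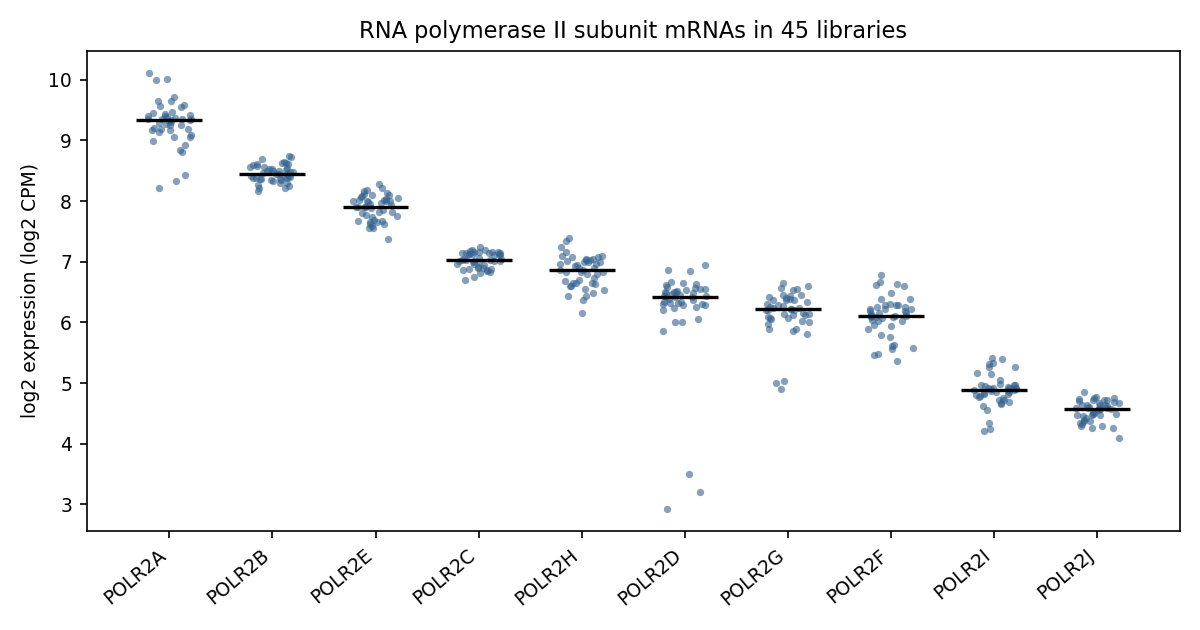
log2 expression (log2 CPM) of the 10 subunit genes, ordered by median; each point is 1 of 45 libraries and each bar is the median. POLR2D has 3 libraries far below the rest (2.92 to 3.50), POLR2G has 3 (4.90 to 5.04), and POLR2A has 3 above and 3 below.

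Levels of different genes were compared per kilobase of the main transcript. POLR2A had the highest median, at 102.6 CPM per kb, followed by POLR2G at 94.3, POLR2B at 92.5, POLR2E at 83.9, POLR2C at 74.0, POLR2I at 66.8, POLR2H at 64.3, POLR2F at 33.3, POLR2J at 25.5 and POLR2D at 17.1 CPM per kb. Upper neighbours were close in this order. POLR2A exceeded POLR2G in 26 of 45 libraries and POLR2G exceeded POLR2B in 25, so these neighbours were not separated from library to library. The steps at the lower end were clearer, with POLR2H above POLR2F in 43, POLR2F above POLR2J in 40 and POLR2J above POLR2D in 44 of 45 libraries. The order depended on the length used. With the merged length of all annotated exons, chosen after the data were seen, POLR2F fell to last at 9.84 CPM per kb, and POLR2G came to 39.2, below POLR2B at 59.4 and POLR2E at 49.2.

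POLR2D encodes a stalk subunit and is the one member that an siRNA of the study targets. It is on chr2:128601127-128615729 of GRCh37, on the minus strand, and its main transcript has 4 exons. Its log2 level was 2.92 in library 16 (102 reads), 3.20 in library 44 (87 reads) and 3.50 in library 19 (147 reads), and from 5.85 to 6.94 in the other libraries. These 3 values were 8.80%, 10.7% and 13.2% of the median over the 45 libraries, and no other library came near them. Between library 19 and the next lowest, library 15, the gap was 2.35 on the log2 scale. A gap as large between the third and the fourth lowest was found in 22 of 15695 genes (0.140%), a count made after the values were seen. By the sample list, library 16 is mock replicate 2, library 44 is siPOLR2D replicate 3 and library 19 is siCDK10 replicate 2, so the names go against the values. The paper reports that POLR2D was efficiently knocked down in its siPOLR2D samples. Grouping the libraries by the listed names does not reproduce this, although the values do hold 3 libraries with little POLR2D. The s.d. of POLR2D was 0.84, larger than that of 89.8% of the genes tested, and its whole range was 16.3-fold.

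The highest POLR2D values were in library 14 (6.94), library 3 (6.87) and library 27 (6.85). These are the libraries with the lowest values of GLI1, a transcription factor of the Hedgehog pathway and another siRNA target. The POLR2D values there were 143%, 136% and 134% of its median. The gap of 0.175 below these libraries was matched or exceeded in 17.6% of the genes tested.

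POLR2A, the catalytic subunit, is on chr17:7387685-7417933 (plus strand, 30 exons in the main transcript). Its highest libraries were the same 3 in which POLR2D was lowest. Its log2 level was 10.12 in library 44, 10.02 in library 16 and 10.00 in library 19, which is 172%, 160% and 158% of its median, and the next library had 9.71, a gap that 10.2% of the genes tested matched or exceeded. Its lowest libraries were a separate set, library 21 at 8.21, library 45 at 8.33 and library 51 at 8.43, against 8.80 in the next, a gap matched or exceeded in 13.7% of genes. Gaps of these sizes were thus not rare in the table. In the lowest of them 3278 reads were counted, so depth did not limit the value. These are also the lowest libraries of SAP130, a component of the Sin3 histone deacetylase complex and an siRNA target, at 45.9%, 49.9% and 53.3% of the POLR2A median. POLR2D was at 6.50, 6.50 and 6.52 in libraries 21, 45 and 51, all close to its own median of 6.43. POLR2A thus departed from its median in both directions, in libraries that differed between the directions. Its s.d. was 0.38, larger than that of 44.7% of the genes tested.

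The sequences before the start sites of both genes are shown because they are the members with the widest ranges, 16.3-fold and 3.74-fold, and because the lowest libraries of one are the highest of the other. Each is a window of 300 bases across the annotated start, from RefSeq on GRCh38.p14, 5′ to 3′ on the strand of the gene, at chr2:127858106-127858405 (minus strand) for POLR2D and chr17:7484116-7484415 (plus strand) for POLR2A. Capitals mark GGGCGG or its complement CCGCCC, the core of the GC box.
POLR2D: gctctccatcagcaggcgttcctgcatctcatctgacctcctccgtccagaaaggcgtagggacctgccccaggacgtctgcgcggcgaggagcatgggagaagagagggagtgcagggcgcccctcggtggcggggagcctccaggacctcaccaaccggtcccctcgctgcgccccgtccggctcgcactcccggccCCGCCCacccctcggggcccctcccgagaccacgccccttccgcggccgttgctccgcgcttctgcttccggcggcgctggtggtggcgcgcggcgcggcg
POLR2A: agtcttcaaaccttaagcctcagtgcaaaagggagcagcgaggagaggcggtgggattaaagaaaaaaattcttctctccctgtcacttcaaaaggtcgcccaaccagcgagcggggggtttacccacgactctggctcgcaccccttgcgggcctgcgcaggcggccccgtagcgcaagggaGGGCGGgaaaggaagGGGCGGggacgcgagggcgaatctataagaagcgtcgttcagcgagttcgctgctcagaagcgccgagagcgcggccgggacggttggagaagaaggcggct
POLR2D has 1 such match and POLR2A has 2. Of the 10 genes, 7 matched an entry of the promoter table (POLR2A to POLR2F and POLR2H). GGGCGG, searched on both strands, was in 5 of these 7 (POLR2A, POLR2B, POLR2D, POLR2E and POLR2H), against 48.3% of 27305 genes with such a window. CCAAT or ATTGG was in 0 of 7 against 39.7%, and TATAAA or TTTATA in 0 of 7 against 3819 of the same 27305 genes. These are matches of letters and no measure of binding.

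POLR2G, the partner of POLR2D in the stalk, is on chr11:62529037-62534182 (plus strand). Its lowest libraries were not those of POLR2D. In libraries 16, 44 and 19 its log2 level was 6.02, 5.98 and 5.90, below its median of 6.22. These were ranks 10, 8 and 7 from the lowest of the 45 libraries. Its own lowest values were 4.90 in library 29 (588 reads), 4.99 in library 49 (399 reads) and 5.04 in library 39 (436 reads), and the next was 5.81. They were 39.9%, 42.7% and 44.1% of its median, and POLR2D was at 6.34, 6.26 and 6.33 there. The subunits of the stalk were thus lowest in different libraries. Libraries 29, 39 and 49 are the lowest of CCNK, the cyclin partner of the kinases CDK12 and CDK13 and an siRNA target. The gap of 0.77 above these libraries was matched or exceeded in 4.02% of the genes tested.

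**Figure D2:**
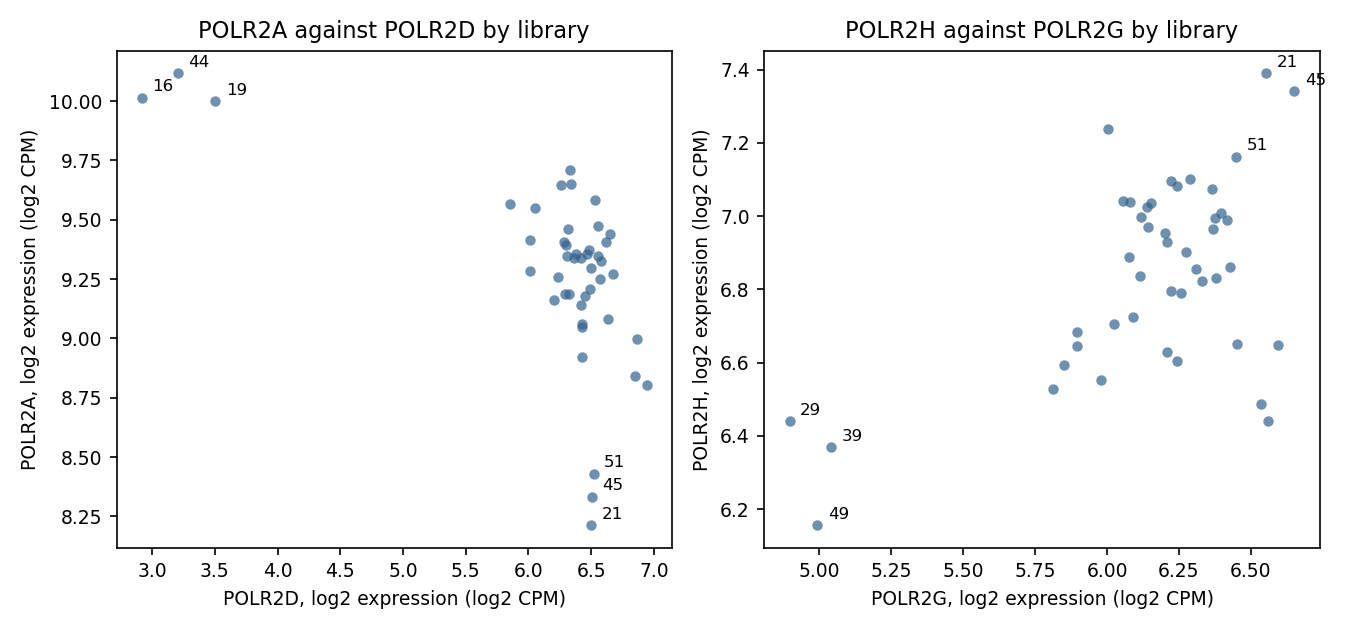
log2 expression (log2 CPM) of POLR2A against POLR2D (left) and of POLR2H against POLR2G (right), 1 point per library, with outlying libraries numbered. Libraries 16, 44 and 19 are lowest for POLR2D and highest for POLR2A, libraries 21, 45 and 51 are lowest for POLR2A at ordinary POLR2D, and libraries 29, 39 and 49 are lowest for POLR2G and POLR2H.

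POLR2H and POLR2I were lowest in the same libraries as POLR2G, by smaller amounts. POLR2H, shared by all 3 nuclear polymerases, is on chr3:184079498-184086384 and had 6.16 in library 49, 6.37 in library 39 and 6.44 in library 29, with library 3 at the same 6.44. Its highest values were 7.39 in library 21, 7.34 in library 45 and 7.24 in library 41, so 2 of the 3 lowest libraries of POLR2A were its highest. POLR2I, on chr19:36604611-36606115, had 4.21 in library 49, 4.25 in library 39 and 4.35 in library 29, with 4.56 in the next library. Its highest value was 5.41 in library 42. The lowest values were 61.3% of the median for POLR2H and 62.7% for POLR2I, compared with 39.9% for POLR2G. Both genes had an s.d. of 0.26.

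POLR2F, another subunit shared between the polymerases and located on chr22:38348614-38437922, had an s.d. of 0.33 and ranged from 5.36 to 6.78. Its highest libraries were 16 (6.78), 19 (6.67) and 29 (6.64), with library 44 at 6.61. The libraries with least POLR2D therefore held ranks 1, 2 and 4 for POLR2F. Its lowest were library 12 (5.36), library 7 (5.47) and library 6 (5.47).

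POLR2B, POLR2C, POLR2E and POLR2J moved least. POLR2B, the second-largest subunit (chr4:57843888-57897324), ranged from 8.17 in library 10 to 8.75 in library 14, a 1.49-fold range. POLR2C, a platform subunit (chr16:57496572-57505921), ranged from 6.71 in library 38 to 7.24 in library 14, which is 1.45-fold. Their s.d. values of 0.14 and 0.13 were larger than those of 0.325% and 0.166% of the genes tested, which puts both among the steadiest genes of the table. POLR2J, the partner of POLR2C (chr7:102113575-102119369), ranged from 4.10 in library 6 to 4.85 in library 11, with an s.d. of 0.16 on 182 to 483 reads per library. POLR2E, a shared subunit (chr19:1086573-1095379), ranged from 7.38 in library 49 to 8.28 in library 46, with an s.d. of 0.21. In libraries 16, 44 and 19, where POLR2D was at its lowest, POLR2C stood at 108%, 98.1% and 98.4% of its median, and POLR2J had log2 levels of 4.64, 4.58 and 4.62, near its median of 4.58.

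**Figure D3:**
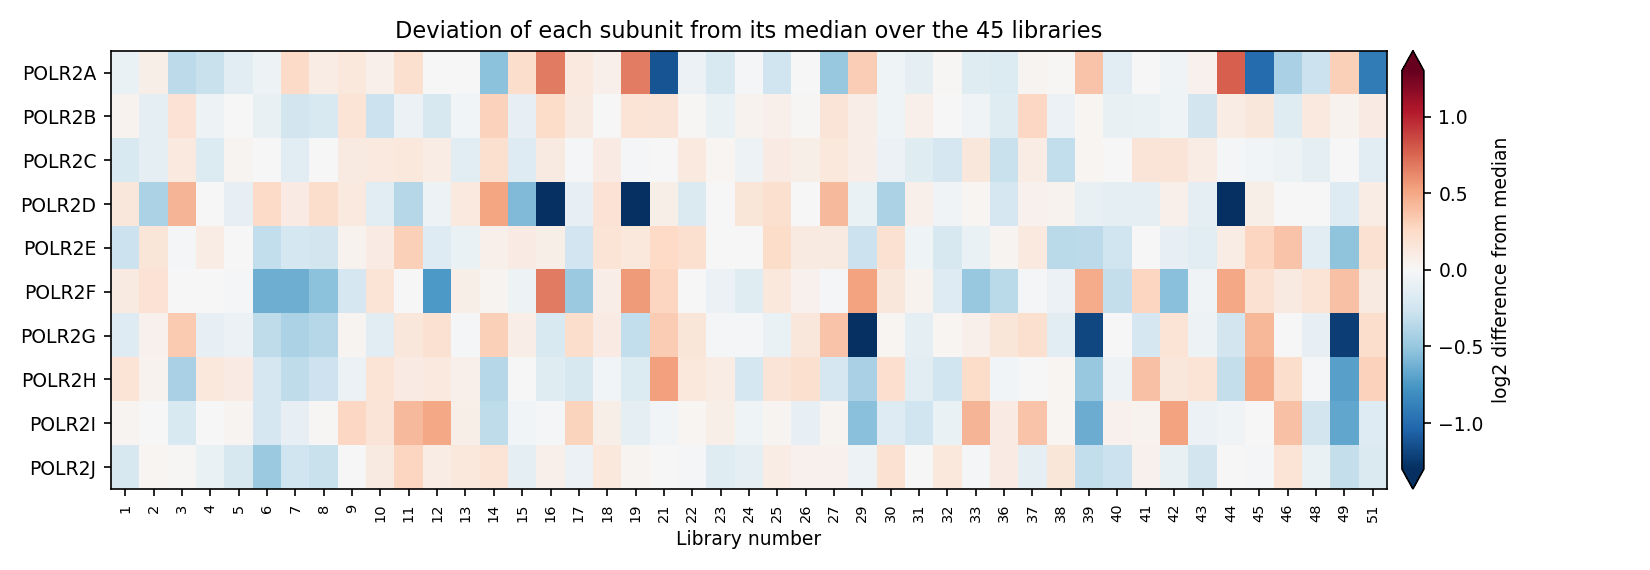
Difference of each subunit from its own median (log2, colour scale from -1.3 to 1.3 with values beyond it in the end colours) in each library, in order of library number. The darkest cells, more than 0.9 from the median, are POLR2D at libraries 16, 19 and 44, POLR2A at 21, 45 and 51 and POLR2G at 29, 39 and 49. POLR2A at 16, 19 and 44, POLR2F at 6, 7, 12 and 16, POLR2H at 49 and POLR2I at 39 and 49 lie 0.63 to 0.78 from it, and the POLR2B and POLR2C rows stay pale.

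Sharing extreme libraries with an siRNA target was about as frequent among the subunit genes as in the whole table. Leaving out the lowest libraries of the targets themselves, the 10 genes have 19 sets of 3 lowest or 3 highest libraries, and 6 of these (31.6%) were exactly the 3 lowest libraries of one of the 11 siRNA targets, against 8964 of 31379 sets (28.6%) over all genes tested. The share is thus near that of the whole table and is not particular to these genes. A share for libraries drawn at random was not computed. It was counted after the values were seen. The 6 sets are the highest of POLR2A (lowest of POLR2D), the lowest of POLR2A (lowest of SAP130), the highest of POLR2D (lowest of GLI1), and the lowest of POLR2G, POLR2H and POLR2I (lowest of CCNK). For POLR2H the match was close to a tie, as the next library was higher by only 0.0008 on the log2 scale.

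The subunit genes did not rise and fall as a unit. Over the 45 libraries, which share a normalisation within the table, the 45 pairs of members had a median Spearman rho of 0.11, and 28 were above 0. The lowest was -0.52, for POLR2A with POLR2G, followed by -0.49 for POLR2A with POLR2D and -0.46 for POLR2A with POLR2H. The highest was 0.50, for POLR2E with POLR2H. These values were not set beside those of other gene pairs, so whether they are particular to the members was not tested. Of all genes in the table, CCNT2, which encodes a cyclin of the elongation factor P-TEFb, was most like POLR2D (rho 0.88, n = 45 libraries), followed by OTUD3 (0.82) and TMEM131L (0.79). The genes named here and below were chosen for the 3 highest rho values among all genes tested. With 3 libraries per condition, the 45 libraries are not independent of each other. Over all 45 libraries, Pearson's r of POLR2D was 0.76 with CCNT2, 0.53 with OTUD3 and 0.54 with TMEM131L. Because 3 libraries of low POLR2D lie apart, it was also computed over the other 42, a choice made after the data were seen. There it was 0.81 with CCNT2, 0.73 with OTUD3 and 0.79 with TMEM131L. Over the same 42 libraries the rho of POLR2D with POLR2A was -0.37. The genes most like POLR2A were SNAI1 (0.81), NMB (0.80) and ARC (0.78), and among those most like POLR2G were IMPDH2 (0.84) and UBXN1 (0.82).

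For the steadier members the nearest genes included TMED7 (0.81), NAP1L4 (0.81) and KLHL15 (0.80) for POLR2B, and ABCC4 (0.76) and HCCS (0.75) for POLR2C. Those of POLR2E were ENSG00000255210 (0.85), ZNRD2 (0.81) and RBM42 (0.79). Those of POLR2J had lower rho values than any other member, at 0.67 for YJU2B, 0.64 for SNF8 and 0.61 for CIAO2B. SEC61B (0.82), LAMP1 (0.81) and IDH3A (0.81) were nearest to POLR2F. STUB1 (0.83), SDF2L1 (0.81) and ACAT2 (0.80) were nearest to POLR2H, and PACSIN3 (0.77), RPL18 (0.76) and LPAR2 (0.75) to POLR2I.

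Among the other RNA polymerase II genes, 4 of 6 were listed. POLR2L, a subunit shared by the polymerases, had its highest values in the libraries lowest for POLR2D, at 8.29 in library 44, 8.24 in library 19 and 8.22 in library 16, against a median of 6.99 and 7.64 in the next library. POLR2J4, a copy related to POLR2J, was also highest there but rested on few reads, with 57 in library 16, 26 in library 44 and 31 in library 19. POLR2K had a median of 6.25 and POLR2M, which encodes a factor that binds the assembled polymerase, one of 4.75. The highest values of POLR2K were in libraries 14, 3 and 27, which are also the highest of POLR2D. POLR2J2 and POLR2J3 were not listed. The median s.d. was 0.26 for the 14 RNA polymerase I and III subunits, 0.28 for 17 general transcription factors and 0.26 for 18 assembly, C-terminal domain and pausing factors, close to the 0.26 of the members, and 0.37 for the 4 other RNA polymerase II genes. Within these lists, GTF2B, which encodes TFIIB, was highest in library 16 at 6.87 against a median of 5.63. POLR1C was also highest there, and MNAT1 and SUPT6H were highest in library 19. Other genes were at their lowest in the libraries of low POLR2D. POLR3G, POLR1E, POLR3C, POLR3E, GTF2E1, GTF2H3 and CDK7 were lowest in library 44, POLR3G at 4.85 against a median of 6.38. NELFA was lowest in library 16, and SUPT5H and GTF2H2 in library 19. NELFE, of the pausing complex NELF, was lowest in library 49 at 4.09 against a median of 6.09. These genes were picked out after their values were seen.

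Because the siRNA targets go against the list, comparisons by listed name describe the names and not the treatments. By the listed names, no subunit gene passed the test under any siRNA. With limma on the log2 values, 0 of the 10 genes passed an adjusted p under 0.05 together with a 1-unit log2 change in any of the 14 comparisons with listed mock, beside 0% of all 219730 gene tests. At an unadjusted p under 0.05 there were 3 of 140 member tests (2.14%), against 10392 (4.73%) of all tests, and limma with voom weights also called 0. The 3 were POLR2I under listed siTGM5, with a log2 fold change of -0.57 (s.e. 0.22, limma adjusted p = 0.596), POLR2H under listed siTGM5, -0.49 (s.e. 0.23, adjusted p = 0.615), and POLR2D under listed siCCNK, 1.34 (s.e. 0.65, adjusted p = 0.942). Library 49, the lowest of POLR2H and POLR2I, is listed as siTGM5 replicate 3. The lowest adjusted p of any member was 0.587. In the 4 lists of related genes, 0 genes were called (of 4, 14, 17 and 18 tested), with lowest adjusted p-values of 0.497, 0.556, 0.480 and 0.480.

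For POLR2D itself, the libraries listed as siPOLR2D had 6.29, 6.42 and 3.20, and those listed as mock had 6.57, 2.92 and 6.45. Each group thus held 1 of the low libraries. The log2 fold change was -0.01 (s.e. 0.65, limma adjusted p = 1.00). It was -1.21 without the library listed as mock replicate 2 and 1.04 without that listed as siPOLR2D replicate 3, so single libraries set its direction.

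**Figure D4:**
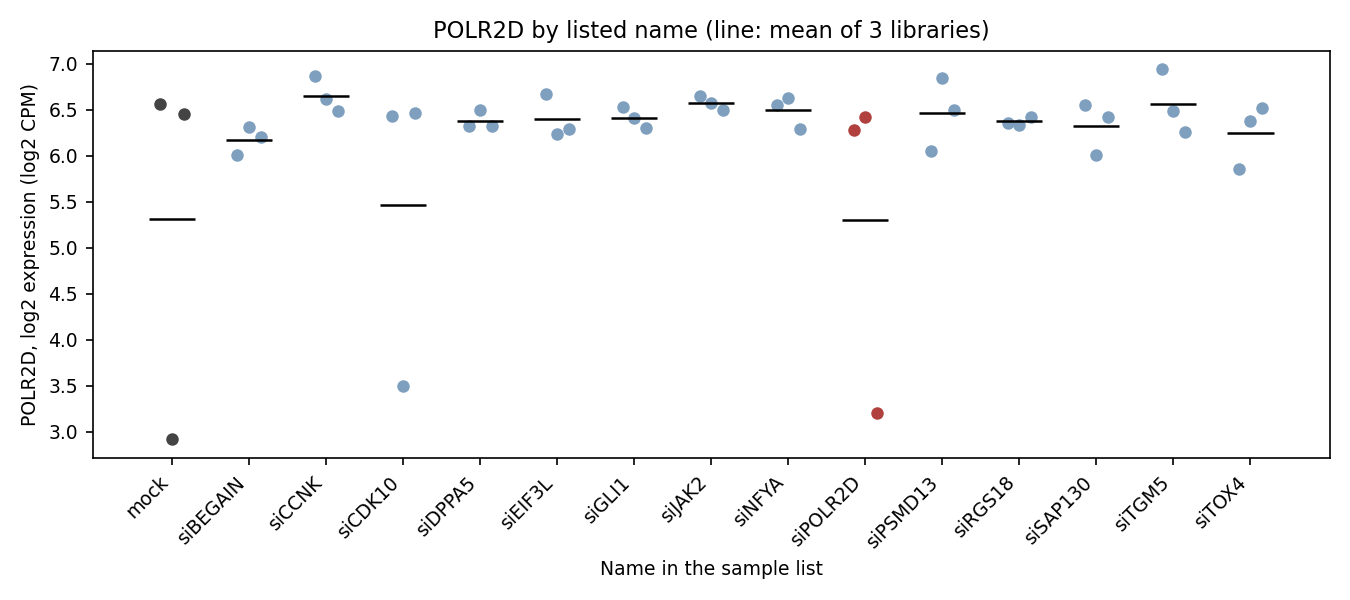
POLR2D log2 expression (log2 CPM) by the name in the sample list; points are libraries and lines are means of 3. The low libraries stand 1 each under mock, siCDK10 and siPOLR2D, and the other libraries lie between 5.85 and 6.94.

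Shared sequence limits some of these values. Of the stretches of 50 bases in the POLR2J transcript, 33.3% also occur in transcripts of other genes, among them POLR2J2, POLR2J3 and POLR2J4, so the POLR2J level is uncertain where reads could be split between copies. For POLR2D this share was 7.26%, including a processed copy, for POLR2E 2.00% and for POLR2C 0.583%, and it was 0 for the other members. Exons of genes on the opposite strand overlap 12.6% of POLR2I, 4.99% of POLR2C, 4.38% of POLR2J, 2.10% of POLR2D and 1.93% of POLR2E, and the library kit does not mark strand, so reads there cannot be assigned to either gene.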

How the data were processed

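RNAseq was performed on 45 libraries of HCT116-VR cells, 3 each for mock and 14 siRNAs. The authors deposited log2 values of 15698 genes, 1 column per library: log2 CPM from Limma-Voom, computed on scaled library sizes after adding 0.5 to the reads of every gene. According to the submitters' processing notes and the methods, reads were called with CASAVA 1.8.2, aligned to GRCh37 (with an Ensembl annotation) with TopHat 1.4.1 and counted with HTSeq. The filter that left these genes is not given in the sources used here. Whole reads were recovered by setting a library's minimum to 0 reads, which made 100% of values whole within 0.001. In the shallowest library, 3 reads, the most that a count of 0 allows, correspond to a log2 value of -1.07. This limit covers counting error only, as reads were not marked by molecule.

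Symbols were matched for 15366 genes (97.9%). Coordinates, lengths and overlaps came from GENCODE on GRCh37, with the canonical transcript as the main transcript. Listed siRNAs were compared with listed mock in 1 fit of all 45 libraries with limma 3.58.1 (lmFit, eBayes with trend) in R 4.3.3, over 15695 genes with log2 of at least -1 in at least 3 libraries, leaving 30 residual degrees of freedom. p-values were adjusted by Benjamini-Hochberg. The fit was tested on simulated reads with changes planted in every library listed as siPOLR2D. That simulation held no wrongly listed libraries, so it says nothing about the sample list. Correlations and summaries were computed in Python 3.11.15 with scipy 1.17.1.

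The 10 genes and all lists were chosen with earlier results of these data known. Named were all members, with their 3 lowest and 3 highest libraries and the 3 genes of highest Spearman rho, some of which are not reported here. Whether replicate numbers pair the libraries could not be settled, since the list itself is in doubt: over 315 same-numbered pairs the correlation of deviations from listed group means had a median of -0.00035 (-0.57 to 0.83) and exceeded 0.1 in 66. Alternatives were 2 reads added, median centring, no filter, voom weights, a replicate block, fits of 6 libraries, the adjusted p-value alone and leaving out each library.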

Additional observations from a re-analysis of the deposited data

How the results depend on the processing

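The count of 0 subunit genes called by listed names was the same under all 7 other settings (lowest adjusted p of a member from 0.585 to 0.923) and in all 45 fits that left out 1 library (lowest 0.328, highest count 0). Over all genes, at most 3 tests passed in any fit without 1 library, and 0 under the other settings. The unchanged count is therefore no result about the subunit genes. For POLR2D in listed siPOLR2D against listed mock, voom weights turned the log2 fold change to 0.047, leaving out 1 library gave values from -1.21 to 1.04, and none passed the threshold. The replicate block left the difference at -0.011 and called 0 subunit genes. The cause of these shifts was not tested beyond the single libraries named above. The 30 alternative levels of the members moved by at most 0.21 on the log2 scale, less than 1 s.d. of the gene concerned. The median s.d. of the members was 0.243 to 0.264 without 1 library and 0.189 from the interquartile range, which gives less weight to the outlying libraries. With merged exon lengths, 7 of 10 levels per kilobase moved by over 1 s.d. of their CPM per kb values, and 8 of 10 by over 1 s.d. on the log2 scale. Because the listed names go against the siRNA targets, the comparisons by listed name describe the names and not the treatments.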
